A study of Mus musculus with 2 samples.

Results

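The genes of the circadian clock were examined on the arrays of a study of cell adhesion. The members are 10 genes, Clock, Arntl, Per1, Per2, Per3, Cry1, Cry2, Bhlhe40, Nr1d1 and Dbp, of 8251 genes named by the array's annotation. They were taken as every probe set that the MG_U74Av2 annotation assigns to exactly 1 of these symbols, which gave 12 probe sets, 3 of them for Cry1 and 1 for each other gene. The list was chosen from the textbook clock with the ratios of these arrays already known, including the low ratio of Per3, so the members' ratios are a description and support no claim about the clock as a whole. Both groups were 3T3 cells, an immortalised mouse embryo fibroblast line, in serum-free DMEM. The suspension group (1 array) was kept unattached. The fibronectin group (1 array) was plated for 30 min on fibronectin at 10 µg/ml, an extracellular matrix protein that cells bind through integrins. The labels give the aim as finding genes induced by fibronectin and following expression in MAPK signalling. With 1 array a group, no value below has a replicate error or a test, and a gene called higher or lower was so between these 2 arrays only. The design text speaks of 2 replicates, but each group here is 1 sample. The sources used here do not state how long the cells had been in suspension, the time of day, or the serum history of either culture. In such bulk RNA, fewer cells that express a gene and less of its RNA per cell cannot be told apart.

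The clock is a feedback loop of transcription that runs in most cells, fibroblasts included. CLOCK and BMAL1, the product of Arntl, bind as a pair to E-box sequences and switch on the Per and Cry genes, whose proteins return to the nucleus and inhibit that pair. In another loop the nuclear receptor NR1D1 (REV-ERB alpha) represses Arntl through ROR elements, BHLHE40 competes at E-boxes, and DBP drives output genes through D-boxes. In cultured fibroblasts serum, glucocorticoids and cAMP signals are known to set the phase of the clock, with Per1 among the genes that respond early.

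The sequences of the start regions show where such elements lie in the genes with the largest ratios. RefSeq promoter windows (GRCm38.p6) of 250 bases before to 50 after a start site were searched on both strands, and 12 windows of 8 members matched by symbol. Windows of Per2 and Bhlhe40 were not used here. The window of Per1 (chr11:69098699-69098998, plus strand), of Cry1 (chr10:85185005-85185304, minus strand) and of Per3 (chr4:151044616-151044915, minus strand) are printed 5′ to 3′ on the gene's strand. They are shown because Per1 and the brightest probe set of Cry1 were higher on fibronectin, while another probe set of Cry1 and that of Per3 were lower. Capitals mark every match of the motifs searched, read on either strand. These include the E-box CACGTG and a variant of it that ends in another base, CACGTT. They also include the short core of the cAMP response element, TGACG, and the D-box, searched as TTATGTAA or TTACGTAA.
Per1: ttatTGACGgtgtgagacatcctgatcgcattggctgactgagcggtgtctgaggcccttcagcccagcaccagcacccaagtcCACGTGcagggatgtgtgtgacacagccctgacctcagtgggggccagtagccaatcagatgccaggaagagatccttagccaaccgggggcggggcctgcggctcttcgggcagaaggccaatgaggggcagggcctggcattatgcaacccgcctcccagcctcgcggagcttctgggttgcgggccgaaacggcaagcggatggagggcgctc
Cry1: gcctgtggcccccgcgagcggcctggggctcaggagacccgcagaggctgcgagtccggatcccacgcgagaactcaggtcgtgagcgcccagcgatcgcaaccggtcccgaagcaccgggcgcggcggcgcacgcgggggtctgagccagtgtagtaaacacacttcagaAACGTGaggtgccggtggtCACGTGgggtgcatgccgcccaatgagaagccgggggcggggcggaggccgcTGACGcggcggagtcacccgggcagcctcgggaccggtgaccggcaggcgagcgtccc
Per3: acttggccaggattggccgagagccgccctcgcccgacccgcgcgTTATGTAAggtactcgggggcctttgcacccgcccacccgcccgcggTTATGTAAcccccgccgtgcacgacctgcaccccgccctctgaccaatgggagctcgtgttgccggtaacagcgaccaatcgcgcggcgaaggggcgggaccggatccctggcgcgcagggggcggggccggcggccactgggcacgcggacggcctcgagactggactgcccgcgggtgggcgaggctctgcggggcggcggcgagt

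Of the 8 members with a window, only Per1 (in the printed window, not in its other) and Cry1 had the E-box CACGTG. That is 2 of 12 windows, beside 7.15% of all 32851 windows. The E-box lay 166 to 161 bases before the start in Per1 and 60 to 55 before it in Cry1. The variant CACGTT was found in Cry1, Cry2 and Nr1d1 and in 4.68% of all windows. The core TGACG was found in Per1 (both of its windows), Cry1 and Cry2 and in 20.8% of all windows. The D-box occurred in Per3, at 205 to 198 and again at 158 to 151 bases before the start, against 1.06% of all windows. A ROR element, AAAGTAGGTCA, lay in a window of Arntl, 26 to 36 bases after the start base, against 0.384% of all windows. The full cAMP response element TGACGTCA, which contains that core, and the CArG box of serum response factor were in none of the 12 windows, against 1.79% and 1.63% of all windows. The G and C content of the members' windows ran from 47.0% to 76.7%, and 11 of 12 were above the median of all windows, 52.7%. A match is only a match of letters, and no match says nothing about sites outside these windows.

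On the arrays, Per1 and Bhlhe40 and the brightest probe set of Cry1 had signals more than 2-fold higher on fibronectin than in suspension, and Per3 was more than 3-fold lower there. The other measured members, Per2, Arntl, Clock, Cry2 and Nr1d1, differed by less than 1.5-fold. Dbp was below the signal floor used here on both arrays. A signal is the MAS5 summary of 1 probe set on a linear scale, with each array scaled to a common trimmed mean. The floor was a signal of 490, and a gene counted as measured where at least 1 array reached it, as 9 of the 10 members and 6385 of the 8251 genes did. Signals of different probe sets are not compared as levels of their genes, since each probe set has its own affinity.

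**Figure D1:**
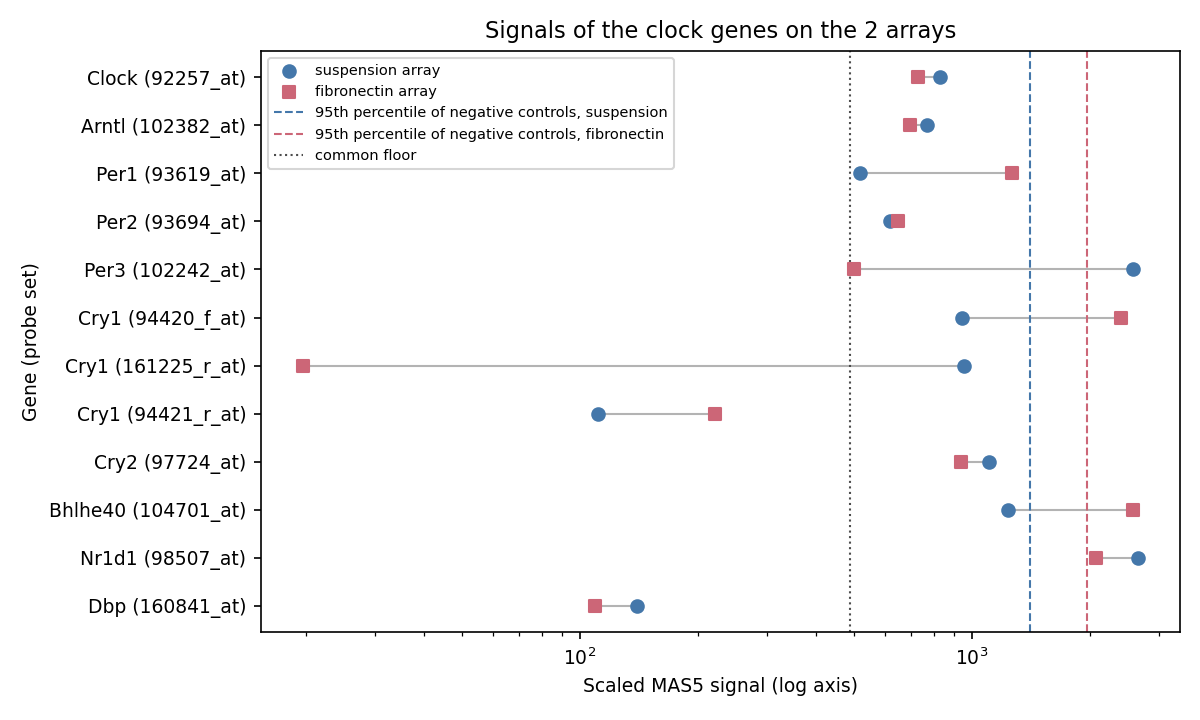
Scaled MAS5 signal (log axis) of the 12 probe sets of the clock genes, with a circle for the suspension array and a square for the fibronectin array; dashed lines are the 95th percentiles of 30 negative controls on each array (1411 in suspension, 1965 on fibronectin) and the dotted line is the common floor of 490. The long lines belong to Per1, Per3, Bhlhe40 and 2 probe sets of Cry1 that run in opposite directions.

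How far these signals stood above background was read from 30 negative controls on each array, which are probe sets for Bacillus transcripts and antisense control probe sets. Their median signal was 459 in suspension and 292 on fibronectin, their 95th percentile 1411 and 1965, and their highest 1452 and 2527. In suspension 2 of the 10 members, Per3 and Nr1d1, exceeded the 95th percentile, where 40.5% of all named genes did. On fibronectin 3 did, Cry1, Bhlhe40 and Nr1d1, where 28.2% of all named genes did. Nr1d1 alone exceeded it on both arrays, as did 26.6% of all named genes, and 6 of the 10 members exceeded it on neither, as did 57.9%. With the 15 Bacillus controls alone, whose 95th percentiles were 929 and 614, the counts were 5 in suspension and 8 on fibronectin, beside 53.8% and 60.5% of all named genes. With the 30 controls, the share of members above the 95th percentile on neither array was thus near that of all genes. With the Bacillus controls alone only Dbp was above it on neither array. The share of all genes was not computed there, so nothing is read from that count.

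The activators of the loop were nearly level. Clock, the bHLH-PAS partner of BMAL1, read 831 in suspension and 727 on fibronectin, a log2 ratio (fibronectin minus suspension) of -0.19. Arntl, which encodes BMAL1, had 769 and 696, a log2 ratio of -0.15. Both were slightly dimmer on fibronectin under the main scaling. After median scaling or quantile normalization both were slightly brighter, with log2 ratios of at most 0.07, so their direction was not settled. Between 6 and 10 of the 30 controls were brighter than these probe sets on the same array.

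Of the period genes, whose proteins carry the negative feedback, Per1 read higher on fibronectin, Per2 nearly level and Per3 lower. Per1 read 519 in suspension and 1269 on fibronectin, 2.44-fold higher, a log2 ratio of 1.29. In suspension it lay just above the floor with 13 of the 30 controls brighter, and on fibronectin 3 were brighter, so the size of the ratio depends on a reading near background. Per2 had 620 and 650, a log2 ratio of 0.07, with 12 and 9 controls brighter. Per3 had 2585 in suspension, brighter than all 30 controls, and 500 on fibronectin, where 11 controls were brighter. It was 5.17-fold lower on fibronectin, a log2 ratio of -2.37. The fibronectin signal lay just above the floor and within the controls, so the size of this ratio, too, depends on a reading near background. With the floor raised to the level of the negative controls (1688) the ratio of Per3 became a bound of -0.61, and Per1 no longer counted as measured.

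Among the cryptochrome genes, the repressors that bind CLOCK and BMAL1 directly, the probe sets of Cry1 disagreed. The brightest, 94420_f_at, had 944 in suspension and 2411 on fibronectin, 2.55-fold higher, a log2 ratio of 1.35, with 8 controls brighter in suspension and 1 on fibronectin. The probe set 161225_r_at had 956 in suspension and 19.6 on fibronectin, at least 1.95-fold lower. The last, 94421_r_at, had 111 and 221, below the floor on both arrays. The ending _f_at marks a probe set that may also detect related transcripts, and _r_at one for which probe selection rules were relaxed, so the direction of Cry1 was not settled by these probe sets. With the 3 probe sets averaged, or with only probe sets that carry a plain _at ending, Cry1 had no measured value. Cry2 had 1105 and 941, a log2 ratio of -0.23, with 4 controls brighter on each array.

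Among the genes of the connecting loops, Bhlhe40 read higher on fibronectin and Nr1d1 slightly lower. Bhlhe40, a bHLH repressor that responds to many extracellular signals, had 1241 in suspension and 2579 on fibronectin, 2.08-fold higher, a log2 ratio of 1.05. The fibronectin signal was brighter than all 30 controls, while 3 were brighter in suspension. Nr1d1, the repressor of Arntl, had 2657 and 2078, a log2 ratio of -0.35. In suspension no control was brighter, and on fibronectin 2 were. Dbp, an output gene that carries strong rhythms in many tissues, had 140 and 109, with 25 and 22 of the controls brighter, and gave no ratio.

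Counted together, 3 of the 9 measured members passed 2-fold on the higher side on fibronectin, as did 5.79% of all measured genes. On the lower side 1 passed it, as did 9.27%. The same counts, 3 and 1, were found at 1.5-fold, against 15.9% and 22.6% of all genes. At 3-fold 0 members were higher and 1 was lower, against 1.38% and 1.88%. The 3 members higher at 2-fold include Cry1, read from its brightest probe set only, and its direction was not settled. With probe sets averaged, 2 of 8 measured members were 2-fold higher, beside 5.5% of all genes. With plain _at probe sets only, the count was again 2 of 8, beside 6.0%. Cry1 had no measured value in either setting. As the list was made with such ratios known, these shares are set side by side and nothing is read from them. The median log2 ratio of the 9 members was -0.15 and that of all measured genes -0.09, and 4 members lay above 0 and 5 below.

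**Figure D2:**
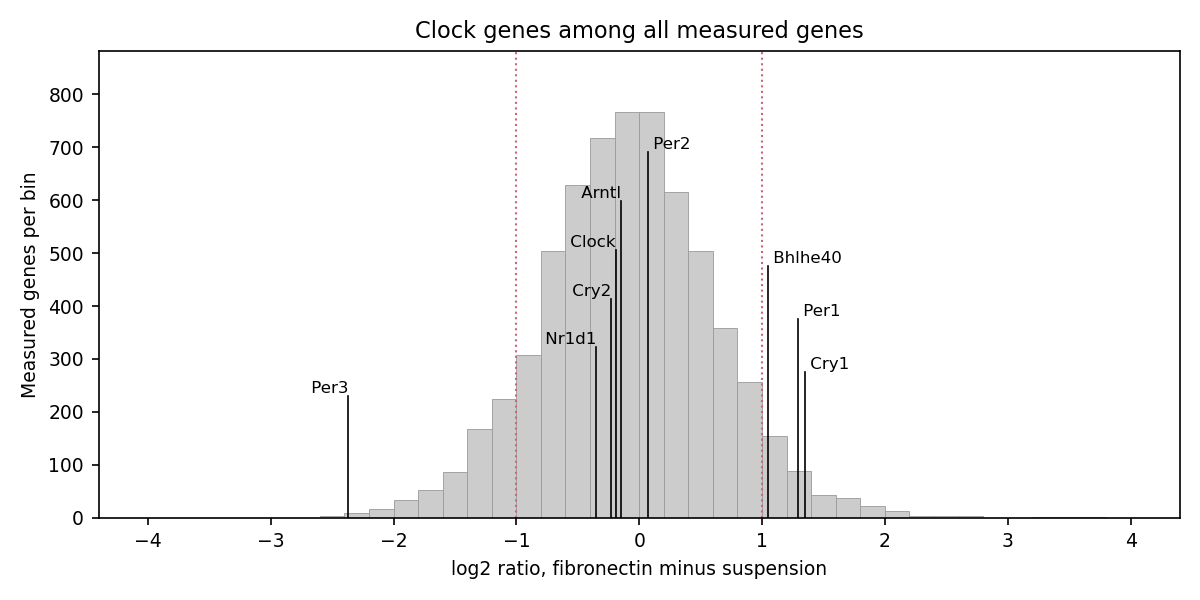
Number of measured genes (6385 in all) per bin of 0.2 in the log2 ratio, fibronectin minus suspension, with the 9 measured clock genes marked by lines whose heights carry no value; dotted lines mark 2-fold. Per3 lies in the lower tail at -2.37, Bhlhe40, Per1 and Cry1 above 1, and the other 5 near the centre.

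The only error these arrays offer is the disagreement between probe sets of 1 gene. Over 279 genes with a second probe set, both with a mean signal within the members' range (635 to 2367) and above the floor on both arrays, the SD of a log2 ratio was 0.68, and the 2 probe sets had the same sign in 55.6% of these genes. It covers probe set error and not the error of cultures or arrays. In units of this SD, the size of the ratio was 3.5 for Per3, 2.0 for Cry1, 1.9 for Per1 and 1.6 for Bhlhe40. For each other measured member it was at most 0.5. The order of the ratios from the highest was Cry1, Per1, Bhlhe40, Per2, Arntl, Clock, Cry2, Nr1d1 and Per3. The SD of a difference of 2 ratios was 0.96. Neighbours in this order lay closer than that, except at the step of 0.99 from Bhlhe40 to Per2 and that of 2.01 from Nr1d1 to Per3. As the members were chosen with their ratios known, these sizes and gaps are a description. The 5 members in the middle spanned 0.42.

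The sizes of these ratios depended on the processing. Scaling the arrays to 9 hybridisation spikes moved the median of all 6385 ratios from -0.09 to -0.51, and median scaling moved it to 0.11. With scaling to the spikes, Per1 had a log2 ratio of 0.82, Cry1 0.88 and Bhlhe40 0.58, so that 0 members were 2-fold higher. Per3 then had a bound of -2.60, its fibronectin signal being below the floor of 508 in that setting. Per1 kept its sign in all 10 alternatives that gave it a value, and Bhlhe40, Per3 and Nr1d1 in 11 of 11 each. A changed floor cannot reverse a sign, and the probe set rules reread the same probe set of each of these genes. Only median scaling, quantile normalization, loess and scaling to the spikes could therefore have reversed these signs. The signals as deposited differ from the main ones only by the factors 0.999 and 1.001. The 9 alternatives with a value for Cry1 all read 94420_f_at, so they say nothing about the disagreement between its probe sets. Clock and Arntl kept their signs in 6 of 9 each, Per2 in 8 of 9 and Cry2 in 9 of 10. These counts, too, include settings that could not reverse a sign. Among the changes of scaling that could, Clock and Arntl stayed negative only with the spikes (-0.67 and -0.62). After median scaling, quantile normalization and loess, Clock had 0.01, 0.02 and 0, and Arntl 0.06, 0.07 and 0.05.

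**Figure D3:**
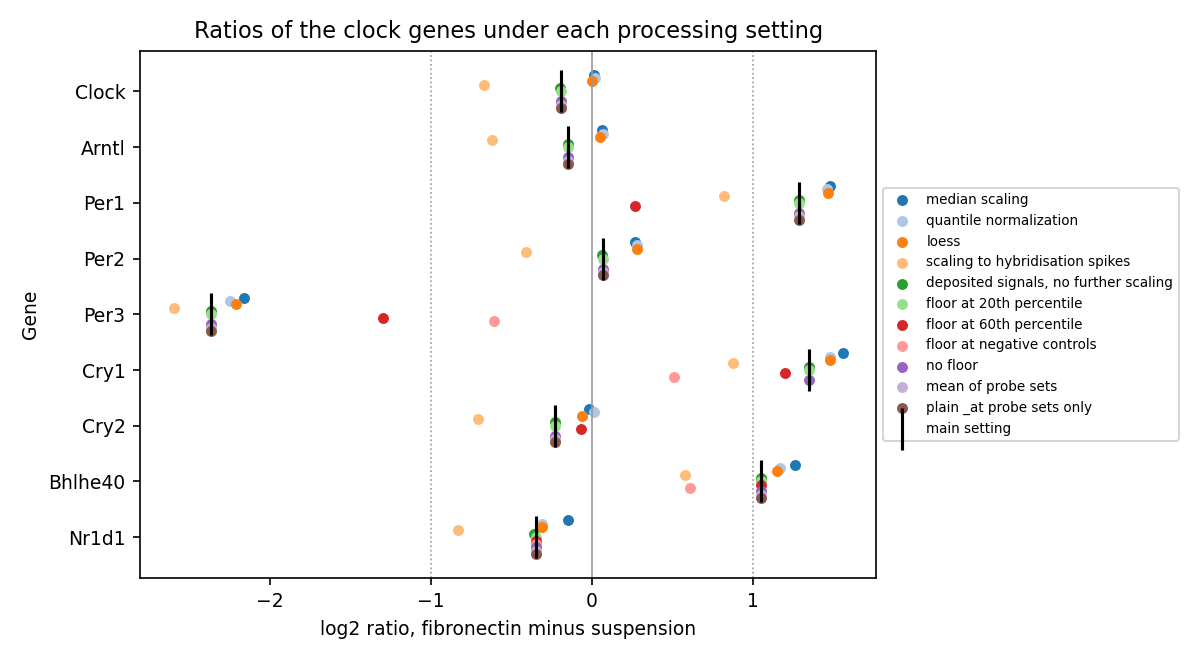
Log2 ratio, fibronectin minus suspension, of the 9 measured clock genes under the main setting (black tick) and under each alternative scaling, floor or choice of probe set (coloured points); dotted lines mark 2-fold. Per3 runs from -2.60 to -0.61, Per1 from 0.27 to 1.48, Cry1 from 0.51 to 1.56 and Bhlhe40 from 0.58 to 1.26. The values of Per1, Per3 and Cry1 nearest 0 are bounds, with 1 array below a raised floor. So are -2.60 of Per3 (scaling to the spikes) and 1.48 of Per1 (median scaling), with 1 array below the floor of that setting.

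Other genes of the clock were taken from a list of 50, of which 34 had a probe set and 31 were measured. Beyond 2-fold lay 4 of the 31 on the higher side and 1 on the lower side, beside the shares of 5.79% and 9.27% of all genes. The median log2 ratio of the 31 was 0.11, with 18 above 0 and 13 below. Of the 34 probed genes, 15 exceeded the 95th percentile of negative controls on both arrays and 12 on neither, beside 26.6% and 57.9% of all named genes.

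Among further transcription factors, Nr1d2 (REV-ERB beta), the close relative of Nr1d1, read 397 in suspension and 1257 on fibronectin, at least 2.57-fold higher. Both signals lay below the 95th percentile of the controls, and the direction was opposite to that of Nr1d1. Rora, an activator at ROR elements, had 1009 and 707 in its brighter probe set, a log2 ratio of -0.51, and was below the floor in the other. Nfil3, a repressor at D-boxes, had 2343 and 3213, a log2 ratio of 0.46, and 0.33 in its other probe set. Tef, a relative of Dbp that also binds D-boxes, had 3131 and 3274, a log2 ratio of 0.06. Nfil3 and Tef thus stood above the controls on both arrays and differed by less than 1.5-fold, while Npas2, which can replace CLOCK, was below the floor with 107 and 72.1. No probe set named Bhlhe41 or Hlf alone.

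Of 17 measured enzymes and binding partners of clock proteins, 1 lay beyond 2-fold on each side. Of all measured genes 5.79% lay beyond it on the higher side and 9.27% on the lower. Wdr5, a subunit of histone methyltransferase complexes that has been found with PER proteins, had 742 and 2080, a log2 ratio of 1.49. Timeless, a replication fork protein that binds cryptochromes, had 2216 and 852, a log2 ratio of -1.38. Wdr5 in suspension and Timeless on fibronectin were below the 95th percentile of the controls, so the sizes of both ratios depend on readings within the controls. The replication partner of Timeless, Tipin, had 1029 and 606, a log2 ratio of -0.76. Both signals of Tipin were below that percentile, and it was named after its values were seen. Casein kinase 1 isoforms phosphorylate PER proteins. Csnk1e had 2765 and 1818, a log2 ratio of -0.60. Csnk1d had 7788 and 7436 in its brightest probe set, a log2 ratio of -0.07, but 0.79, at least 2.05-fold higher and -1.13 in the others. No common direction of casein kinase 1 delta can be read from these 4 probe sets.

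Of 10 measured output genes, 2 lay beyond 2-fold on the higher side and 0 on the lower, beside 5.79% and 9.27% of all measured genes. Nampt, the NAD salvage enzyme, had 952 and 1982, a log2 ratio of 1.06. Usp2, a deubiquitinase, had 356 and 1086, at least 2.22-fold higher, and its other probe set was higher by at least 1.16-fold. Of these signals only that of Nampt on fibronectin passed the 95th percentile of the controls.

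**Figure D4:**
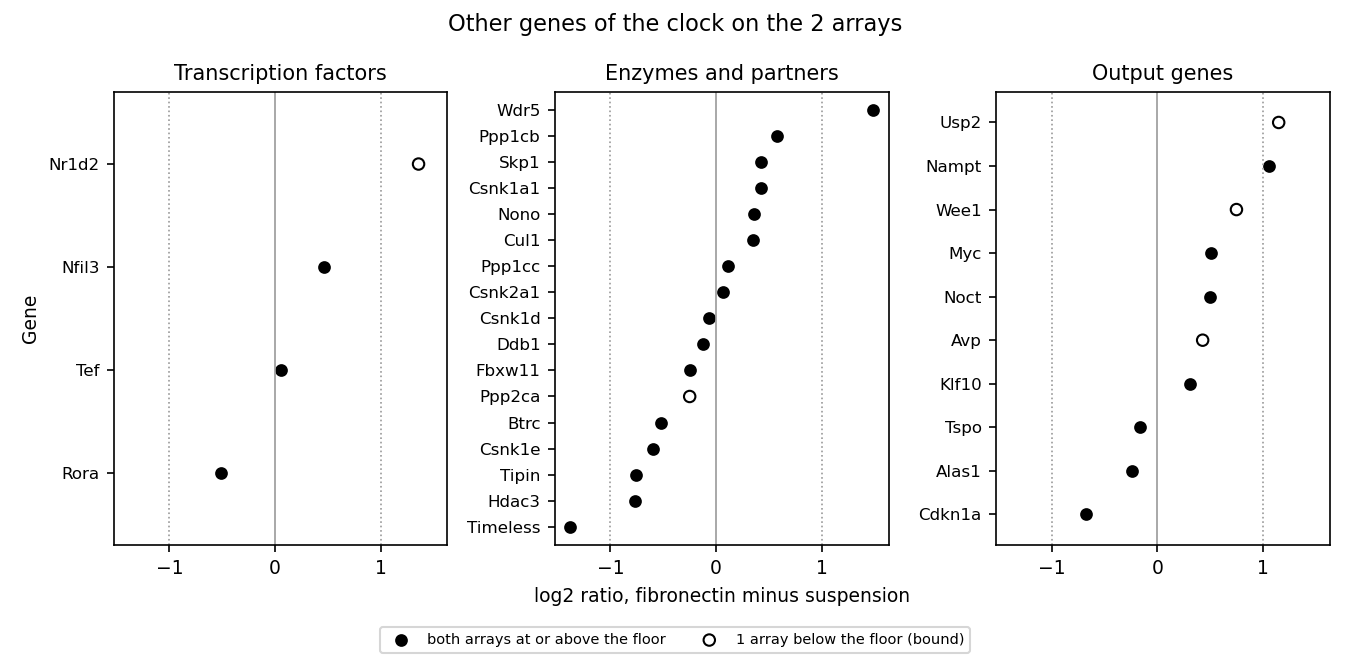
Log2 ratio, fibronectin minus suspension, of the 31 other measured clock genes in 3 panels by role, each gene by its brightest probe set; filled points had both arrays at or above the floor, open points had 1 array below it and are bounds, and dotted lines mark 2-fold. Beyond 2-fold lie Nr1d2, Wdr5, Usp2 and Nampt above and Timeless below.

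Several features of the arrays as a whole stand beside these ratios. Of 14 fibroblast markers 11 exceeded the 95th percentile of negative controls on both arrays, Col1a1 with 45605 and 68592 among them, while Thy1 (237 and 63.0) was below the floor and Vim had 1421 and 686. Of 32 probed markers of epithelium, blood, endothelium, muscle, fat and neural cells, 1 (Cd14) exceeded it on both arrays, 6 did in suspension and 1 did on fibronectin. The summed signal of these markers was 24485 in suspension and 16749 on fibronectin, and that of the fibroblast markers 193692 and 275900. Of the 32, 26 exceeded the percentile on neither array, and the median control itself was 459 in suspension and 292 on fibronectin. The fibroblast sum is led by Col1a1, S100a4 (40028 and 46623) and Col1a2 (36666 and 63147). Such sums mix probe sets of different affinity and are not read as amounts of any cell type. The ratio of 3′ to 5′ control probe sets, a sign of RNA integrity and labelling, was 1.47 in suspension and 0.84 on fibronectin for Gapdh, and 1.79 and 1.19 for beta-actin. The arrays also differed in chip lot, operator, fluidics module and scan day, 4 of 32 settings compared. The part of these differences in the ratios of the clock genes was not tested, and instrument settings and group cannot be told apart.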

How the data were processed

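Total RNA of 1 suspension and 1 fibronectin sample, at 2.5 µg/µl each, was hybridised to 1 Affymetrix MG_U74Av2 array each. The authors deposited an intensity for each of 12488 probe sets. The submitters' processing notes name MAS5, and neither its version nor its scaling target is stated. Here both arrays were scaled to equal 2% trimmed means of their 12422 probe sets other than controls (factors 0.999 and 1.001). The floor, 490, was the mean of both 40th percentiles, set before log2. A gene was read from the probe set with the highest mean floored log2 signal, and its ratio counts as a bound where 1 of the arrays fell under the floor. Gene symbols follow the platform annotation. Probe sets with several symbols (396, none a member's) or no entry (1237) were left out. Alternatives changed the scaling, floor, probe set rule, fold and controls. Quantile and loess normalization used limma 3.58.1. The ratio code was tested on simulated data, with changes put only into bright probe sets and with little noise. That test checks the code and not the precision of ratios near the floor. The precision is limited by 1 array a group, which also allows no leave-out. The members and gene lists were chosen with earlier results of these data known. Named genes were all 10 members, other clock genes beyond 2-fold and a fixed set of 10 clock regulators (Nr1d2, Nfil3, Bhlhe41, Rora, Tef, Hlf, Csnk1d, Csnk1e, Timeless and Npas2); Tipin and the markers were named after their values were seen.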

Additional observations from a re-analysis of the deposited data

How the results depend on the processing

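With scaling to the hybridisation spikes 0 clock members were at least 2-fold higher, and of the 31 other clock genes 2 were higher and 5 lower, beside 2.1% and 22.1% of all genes under that scaling. With the floor at the negative controls, 0 members were 2-fold higher and 0 lower, and likewise 0 and 0 of the other clock genes, beside 2.9% and 1.4% of all genes. That floor leaves 4 members measured, too few to read a share from, and the log2 ratios of Per3 (-0.61), Cry1 (0.51) and Bhlhe40 (0.61) are then bounds. With the floor at the 60th percentile 6 members were measured, of which 2 were 2-fold higher and 1 lower. Per1 (0.27), Per3 (-1.30) and Cry1 (1.20) had bounds with that floor. Of the other genes 0 were then 2-fold higher and 1 lower, beside 3.4% and 3.5% of all genes. A floor at the 20th percentile, like no floor, left 6 other genes 2-fold higher and 2 lower. Of all genes 10.6% were higher and 15.4% lower with that floor, and 11.3% and 18.7% with no floor. At 1.5-fold 5 other genes were higher and 5 lower, beside 15.9% and 22.6% of all genes. At 3-fold 0 members were higher, and 0 other genes were higher and 0 lower, beside 1.38% and 1.88%. With Bacillus controls alone 5 members passed the 95th percentile in suspension and 8 on fibronectin, beside 53.8% and 60.5% of all named genes. Of the 89 other values of single members, 85 lay within the probe set SD of the main value. The 4 that did not were the bounds of Per1 and Per3 at the 60th percentile floor and of Per3 and Cry1 at the control floor, which do not show that a ratio moved. The median of the members was -0.62 with scaling to the spikes and 0.07 after quantile normalization, so its sign was not settled. The share of higher genes among all genes beyond 2-fold was 38.4%, or 59.6% under median scaling, 51.0% after quantile normalization, 50.3% after loess and 8.7% with the spikes. Signals below the 95th percentile of the controls on at least 1 array limit every member except Nr1d1, which had 2 controls brighter on fibronectin. No replicate could be left out.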
